A study of Mus musculus with 18 samples.

Results

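The annexin family was described across a pair of mouse mammary carcinoma lines, AT-3 and E0771, that carried inducible MRTFA. Its members were the gene rows of Anxa1, Anxa2, Anxa3, Anxa4, Anxa5, Anxa6, Anxa7, Anxa8, Anxa9 and Anxa11, which are 10 of the 32286 entries of the count table. All 10 passed the filter on low counts and were tested among 17841 genes. Each line held a pRetroX retroviral vector with wild-type MRTFA, with Y238A MRTFA or with no insert (empty vector). MRTFA carries signals from actin to the nucleus, where it acts with the transcription factor SRF, and the series text describes the Y238A form as unable to bind SRF. All groups, the empty vector controls included, received doxycycline at 2 µg/ml for 48 h. The study asked how the binding of MRTFA to SRF bears on the stiffness of cancer cells. RNA sequencing gave 3 libraries for each of the 6 groups, 18 in all. The series text speaks of replicate sets but not of separate cultures, so the p-values below measure the spread between these libraries, which may be technical.

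Annexins bind acidic phospholipids of membranes when calcium is present, through a core built of annexin repeats, and differ mainly in the short N-terminal stretch that binds partner proteins. Several of them gather at injured plasma membrane and help to reseal it, among them Anxa1, Anxa2, Anxa4, Anxa5, Anxa6 and Anxa7. In carcinoma cells annexins are also known for work at the junction of membrane and actin cortex, in secretion and in plasmin formation at the cell surface.

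Promoter windows were searched for 8 of the 10 members, all but Anxa3 and Anxa6, as 11 windows that each hold 250 bases before and 50 bases after a transcription start (RefSeq, GRCm38.p6). They were searched on both strands for the CArG box, which SRF binds, for CATTCC (the TEAD element), TGANTCA (the AP-1 element) and GGGCGG (the GC box). Of the 8 members searched, Anxa5 alone held a CArG box, a motif found in 1.63% of 32851 windows of this length. It began 26 bases after the start, in the first exon, and is shown because SRF is the partner that the Y238A form lacks. Capitals mark the CArG box in this 30-base stretch at chr3:36475843-36475872, minus strand.
Anxa5 CArG site: cgggctgggaCCTAATTAGGgaggtggcca
The 250 bases before the start are shown for 4 members. They are Anxa5, which holds that site, Anxa4, whose fall with wild-type MRTFA in AT-3 was the deepest, and Anxa1 and Anxa2, which differed between the constructs in opposite directions in the lines. Capitals mark CATTCC in Anxa1, and TGANTCA and GGGCGG in Anxa2. The stretch of Anxa5 at chr3:36475888-36476137 (minus strand) and that of Anxa4 (the first window) at chr6:86793585-86793834 (minus strand) hold none of the motifs. Those of Anxa1 at chr19:20390672-20390921 (minus strand) and Anxa2 at chr9:69453433-69453682 (plus strand) follow.
Anxa5 upstream: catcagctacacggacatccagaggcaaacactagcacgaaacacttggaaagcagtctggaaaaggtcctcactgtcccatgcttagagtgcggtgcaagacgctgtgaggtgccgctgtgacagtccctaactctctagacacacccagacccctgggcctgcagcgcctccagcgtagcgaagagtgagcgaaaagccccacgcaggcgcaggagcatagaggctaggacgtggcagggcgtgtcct
Anxa4 upstream: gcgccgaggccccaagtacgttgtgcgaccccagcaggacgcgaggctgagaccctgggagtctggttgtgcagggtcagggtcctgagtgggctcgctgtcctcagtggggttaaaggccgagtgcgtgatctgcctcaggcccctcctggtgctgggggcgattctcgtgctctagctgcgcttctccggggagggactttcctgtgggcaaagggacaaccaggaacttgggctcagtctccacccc
Anxa1 upstream: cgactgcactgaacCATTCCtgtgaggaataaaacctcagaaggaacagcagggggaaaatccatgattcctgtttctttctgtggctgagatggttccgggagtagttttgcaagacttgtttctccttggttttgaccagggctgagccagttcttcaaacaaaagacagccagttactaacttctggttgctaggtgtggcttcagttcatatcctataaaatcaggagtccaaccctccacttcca
Anxa2 upstream: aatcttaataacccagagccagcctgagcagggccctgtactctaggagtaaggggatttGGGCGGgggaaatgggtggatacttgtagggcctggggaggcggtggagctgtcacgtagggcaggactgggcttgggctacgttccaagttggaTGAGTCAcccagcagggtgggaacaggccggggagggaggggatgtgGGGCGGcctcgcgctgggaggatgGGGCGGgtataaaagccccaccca
CATTCC was found in the Anxa1 window alone among the members, and in 14.7% of all windows. TGANTCA was found in the Anxa2 window alone, and in 7.81% of all windows. GGGCGG lay in windows of Anxa2, Anxa4, Anxa7 and Anxa11, and in 35.7% of all windows. No motif overlapped another, and the letters alone do not show that a factor binds.

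The libraries held 81265466 to 115260128 counts. Levels are given in CPM, the usual library-size scaling of counts, after TMM normalisation, and levels of different genes are compared as CPM per kb of exonic length. Changes are log2 fold changes ± SE from edgeR, called where the Benjamini-Hochberg adjusted p over all 17841 genes was under 0.05. The construct had an entry of its own in the table, with more transcript for the wild-type form in both lines. AT-3 libraries held 5434 ± 1445 CPM of it with wild type, 2105 ± 195 CPM with Y238A and 0.0160 ± 0.0138 CPM with empty vector. E0771 libraries held 761 ± 91.1, 319.7 ± 37.4 and 0.0736 ± 0.0639 CPM in the same order, so wild type against Y238A also compares amounts of construct. Srf and the other reference targets of MRTF and SRF, 10 genes in all, rose with wild-type MRTFA against empty vector in both lines, where 36.4% of all genes rose in AT-3 and 11.2% in E0771. Of these targets, 9 fell with Y238A in AT-3, where 22.2% of all genes fell. In E0771 1 of them rose and 3 fell, against 5.41% and 6.64% of all genes. Some E0771 libraries held traces of AT-3 transcripts: across 240 genes near absent from E0771, the median reached 0.508% of the AT-3 level in wild-type replicate 2, 0.269% in Y238A replicate 1 and 1.35% in empty vector replicate 2, and 0.0616% or less in each of the remaining E0771 libraries. In bulk RNA, fewer cells of a type and less RNA per cell cannot be told apart. The 8 epithelial markers summed to 49.7 to 51.6, 77.1 to 95.0 and 14.5 to 15.0 CPM in AT-3 with wild type, Y238A and empty vector, and to 577 to 691, 379 to 403 and 307 to 332 CPM in E0771 in that order. Of them, Krt8 averaged 0.0573 ± 0.0306 CPM in AT-3 and 317 ± 13.4 CPM in E0771 with empty vector, and Epcam and Cdh1 averaged at most 2.38 CPM in any group. Krt19 (3.88 ± 0.330 and 0.0399 ± 0.00192 CPM) and Krt14 (6.83 ± 0.111 and 1.81 ± 0.505 CPM) went the other way. Of the 8, 3 were called higher and 2 lower in AT-3 with empty vector, against 36.8% and 35.2% of all genes. In AT-3, Krt19 averaged 33.6 ± 2.05 CPM with wild type and 69.5 ± 6.64 CPM with Y238A. Krt8 (10.01 ± 1.02 and 0.128 ± 0.101 CPM) and Krt7 (2.31 ± 0.786 and 0.188 ± 0.0473 CPM) went the other way. Between these AT-3 groups, 3 of the 8 were called higher and 2 lower with wild type, against 34.8% and 31.4% of all genes. The 7 leukocyte markers summed to 24.9 to 25.4 CPM with wild type, 70.3 to 75.7 CPM with Y238A and 3.56 to 4.14 CPM with empty vector in AT-3, with Ptprc, Adgre1, Cd3e and Itgam under 0.1 CPM in the Y238A and empty vector groups. The 7 fibroblast markers summed to 46.7 to 52.0, 217 to 236 and 156 to 169.7 CPM in the same groups, with Fap under 0.1 CPM in each. Among the leukocyte markers, Cd68 averaged 20.9 ± 0.348, 72.0 ± 2.89 and 3.43 ± 0.466 CPM in these AT-3 groups. Csf1r went the other way between the constructs, at 2.89 ± 0.315, 0.135 ± 0.0504 and 0.120 ± 0.132 CPM. Of the 4 leukocyte markers tested, 2 were called higher and 1 lower with wild type against Y238A in AT-3, against 34.8% and 31.4% of all genes. Among the fibroblast markers, Pdgfra averaged 20.1 ± 2.13, 118 ± 5.62 and 111 ± 3.63 CPM, and Pdpn 19.7 ± 2.00, 107 ± 5.85 and 49.1 ± 3.63 CPM. Thy1 went the other way, at 6.47 ± 1.14, 0.0402 ± 0.0261 and 0.0612 ± 0.0141 CPM. Of the 4 fibroblast markers tested, 1 was called higher and 2 lower with wild type against empty vector in AT-3, against 36.4% and 32.2% of all genes. In E0771 the leukocyte markers summed to 3.20 to 3.78 CPM with wild type and 11.9 to 17.8 CPM with Y238A, with a median of 4.51 CPM with empty vector, and the fibroblast markers to 95.0 to 103, 223 to 252 and 140.5 to 154 CPM in that order, with Dcn, Lum and Fap under 0.1 CPM in each. There Cd68 averaged 3.03 ± 0.224, 14.2 ± 2.92 and 3.90 ± 0.926 CPM, and Col1a1 76.8 ± 5.33, 204 ± 9.16 and 102 ± 4.99 CPM. Pdgfra averaged 21.1 ± 3.33, 34.2 ± 10.4 and 45.0 ± 3.05 CPM in the same E0771 groups. Of the 4 fibroblast markers tested, 1 was called higher and 0 lower with Y238A against empty vector in E0771, against 5.41% and 6.64% of all genes. The 7 endothelial and adipocyte markers summed to at most 4.04 CPM in any library. The part of these cell type markers in the annexin results was not tested.

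Annexin transcripts were abundant in both lines, and the family's make-up moved with the construct. Summed over the 10 members, the level in AT-3 was 1399 ± 48.5 CPM per kb with wild-type MRTFA, 959 ± 11.5 with Y238A and 1091 ± 15.8 with empty vector (SD, n = 3 each). In E0771 the sums were 738 ± 14.9 CPM per kb with wild type, 561 ± 24.1 with Y238A and 597 ± 18.9 with empty vector. In both lines every wild-type library stood above every library of the other constructs of that line. The Y238A and empty vector libraries did not overlap in either line, with Y238A lower. Anxa5 held the first rank per length in all 3 AT-3 groups, with 544 ± 13.2 CPM per kb with wild type, 276 ± 1.87 with Y238A and 339 ± 5.33 with empty vector. Ranks per length rest on exons pooled over all annotated transcripts, 1777 bases for Anxa5 and 3731 for Anxa2. In CPM without length, Anxa2 stood above Anxa5 in AT-3 with Y238A (960 ± 26.6 against 490 ± 3.33) and empty vector (1198 ± 3.17 against 602 ± 9.48). It did so in every E0771 group too, and only in AT-3 with wild type was Anxa5 the higher. Anxa2 was first in E0771 with Y238A at 199.9 ± 7.15 CPM per kb and with empty vector at 238.3 ± 4.92. In the E0771 wild-type group the ranges of Anxa5 (234.9 ± 5.46 CPM per kb) and Anxa2 (229 ± 5.19) overlapped. Anxa8 and Anxa9 were the lowest members in every group, at no more than 3.31 CPM per kb.

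**Figure D1:**
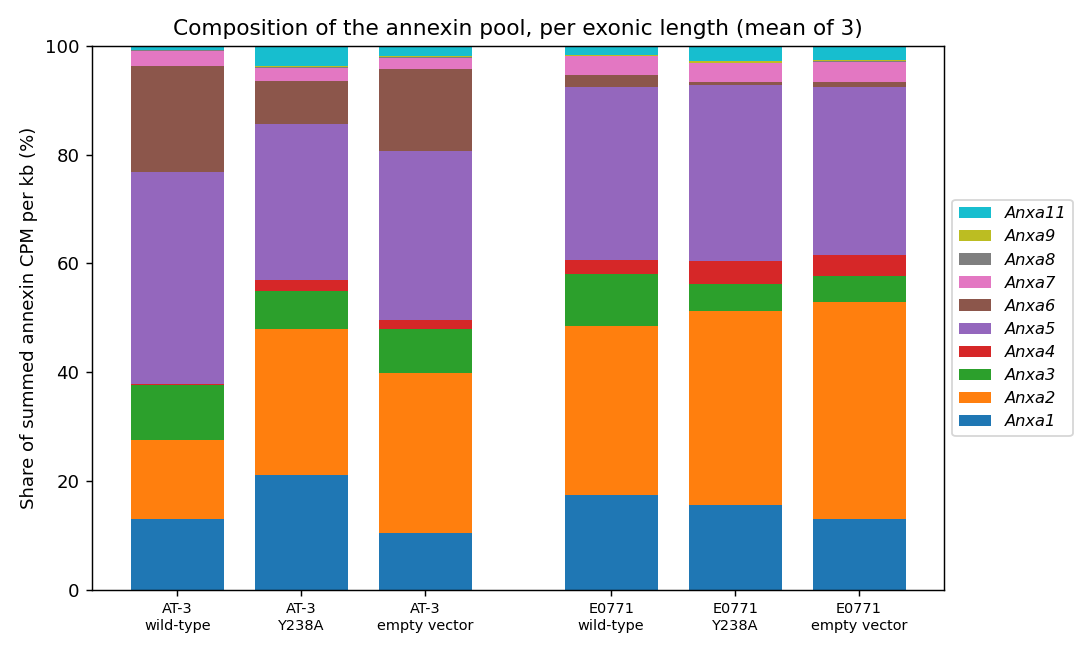
Share of the summed annexin level (percent of CPM per kb, mean of 3 libraries) held by each member in the 6 groups. Anxa6 holds 15.0% ± 0.440 in the AT-3 empty vector group and 0.863% ± 0.210 in the E0771 one, while Anxa2 holds 29.5% ± 0.373 and 39.9% ± 0.746 in those groups.

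The shares show where the lines part. They rest on the same exonic lengths, and each share also moves with the levels of the other members. Anxa6 took 19.5% ± 0.187 of the family level with wild type in AT-3, 7.94% ± 0.201 with Y238A and 15.0% ± 0.440 with empty vector. In E0771 its shares were 2.23% ± 0.133, 0.554% ± 0.118 and 0.863% ± 0.210 in that order of constructs. Anxa2 took 14.7% ± 0.779, 26.8% ± 0.459 and 29.5% ± 0.373 in AT-3, and 31.1% ± 0.296, 35.6% ± 0.280 and 39.9% ± 0.746 in E0771. The level of Anxa2 in E0771 differed between wild type and empty vector by a log2 fold change of -0.06 ± 0.05 (adjusted p = 0.463), although its share was lower. Anxa5 stayed within 31.0% and 32.3% on average in the 3 E0771 groups, although its level rose by 0.34 ± 0.04 (adjusted p = 6.25e-06) with wild type against empty vector. In AT-3 the share of Anxa5 was 38.9% ± 0.496 with wild type, 28.7% ± 0.265 with Y238A and 31.1% ± 0.0383 with empty vector.

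**Figure D2:**
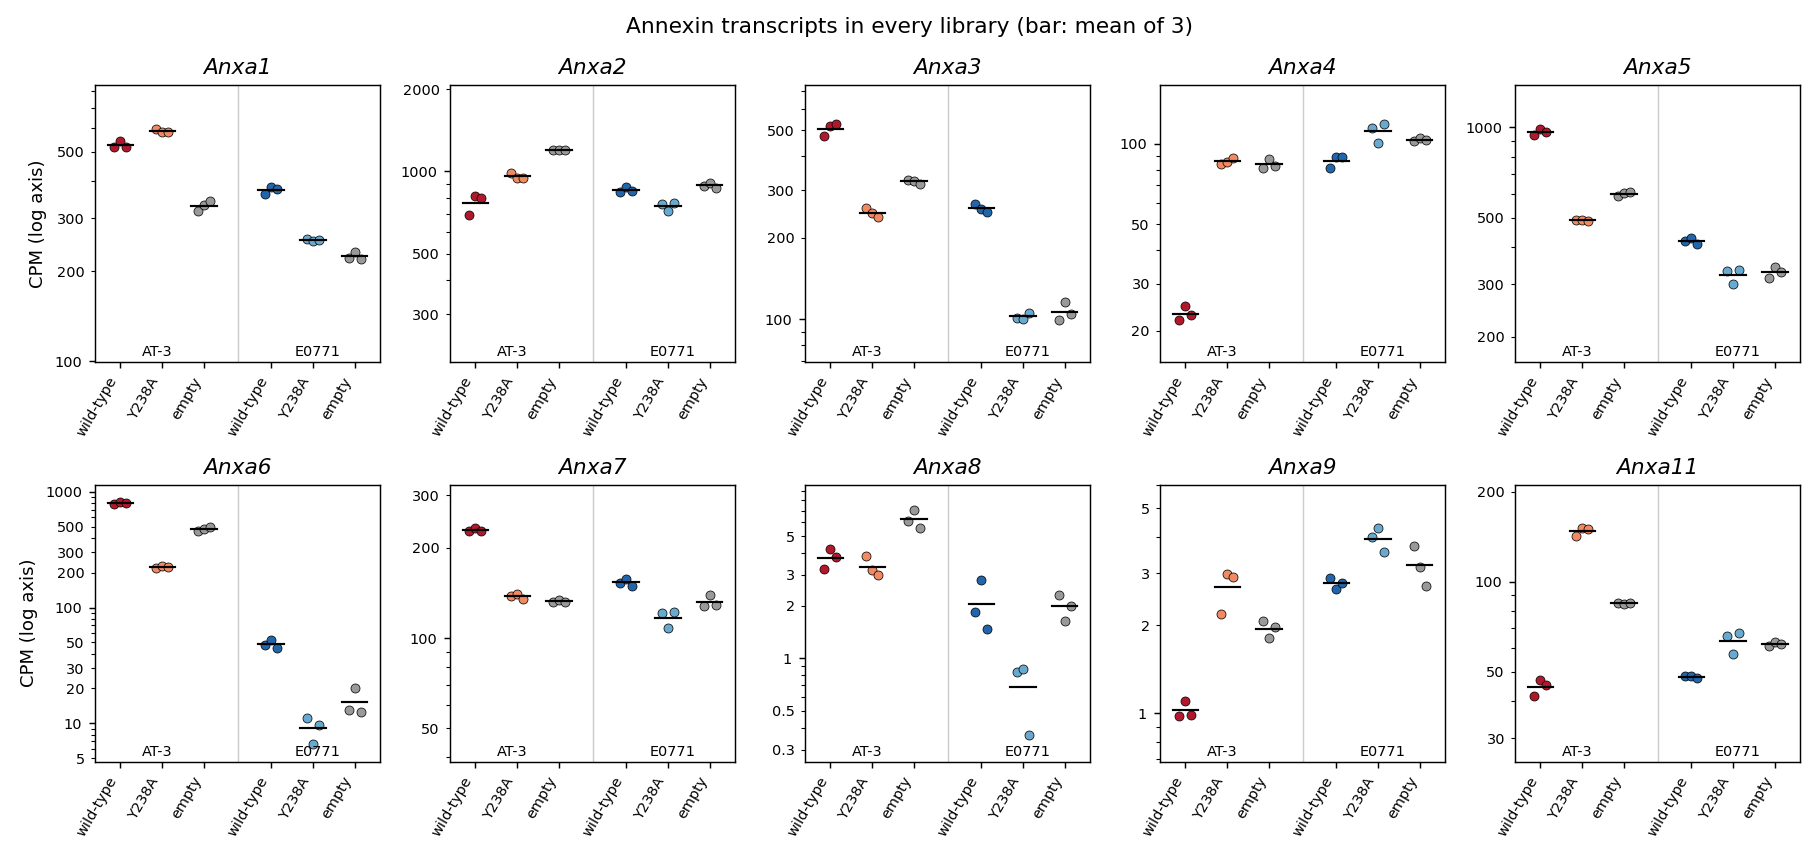
Level of each annexin in every library (CPM on a log axis, bar at the mean of 3 libraries), with AT-3 on the left and E0771 on the right of each panel. Anxa4 averages 23.2 ± 1.45 CPM in the AT-3 wild-type group, against 83.7 ± 3.44 CPM with empty vector, while Anxa6 lies far lower in E0771 than in AT-3.

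Wild-type MRTFA moved annexins in both directions. In AT-3, Anxa1, Anxa3, Anxa5, Anxa6 and Anxa7 rose against empty vector and Anxa2, Anxa4, Anxa8, Anxa9 and Anxa11 fell, so that 10 of 10 passed the test, where 68.6% of all genes did. The groups did not overlap for 10 of 10 members, against 74.5% of all genes. The median log2 fold change of the members was 0.0014, and that of all genes was 0.07. In E0771 the same 5 members rose, and Anxa4 and Anxa11 fell, which makes 7 of 10 against a background of 24.5%. Those 7 did not overlap between the groups, against 41.5% of all genes. The members' median there was 0.13, against -0.05 over all genes. Higher in both lines were 5 of 10 members, against 9.38% of all genes, and lower in both were 2 of 10, against 9.74%.

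Y238A MRTFA gave another set of directions. In AT-3, Anxa1, Anxa9 and Anxa11 rose against empty vector, and Anxa2, Anxa3, Anxa5, Anxa6 and Anxa8 fell, together 8 of 10 where 43.7% of all genes passed. The groups did not overlap for 9 of 10, against 56.9% of all genes. In E0771, Anxa1 rose and Anxa2, Anxa6, Anxa7 and Anxa8 fell, 5 of 10 against a background of 12%. The groups did not overlap for 5 of 10, against 26.1% of all genes. The number of annexins called in E0771 was 3 without empty vector replicate 2, and 3 with E0771 fitted alone, since Anxa6 and Anxa7 then missed the threshold. The medians were -0.13 for the members and 0.01 for all genes in AT-3, and -0.04 and -0.01 in E0771. Within a line both constructs were set against the same 3 empty vector libraries, so these sets of calls are not independent of each other.

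**Figure D3:**
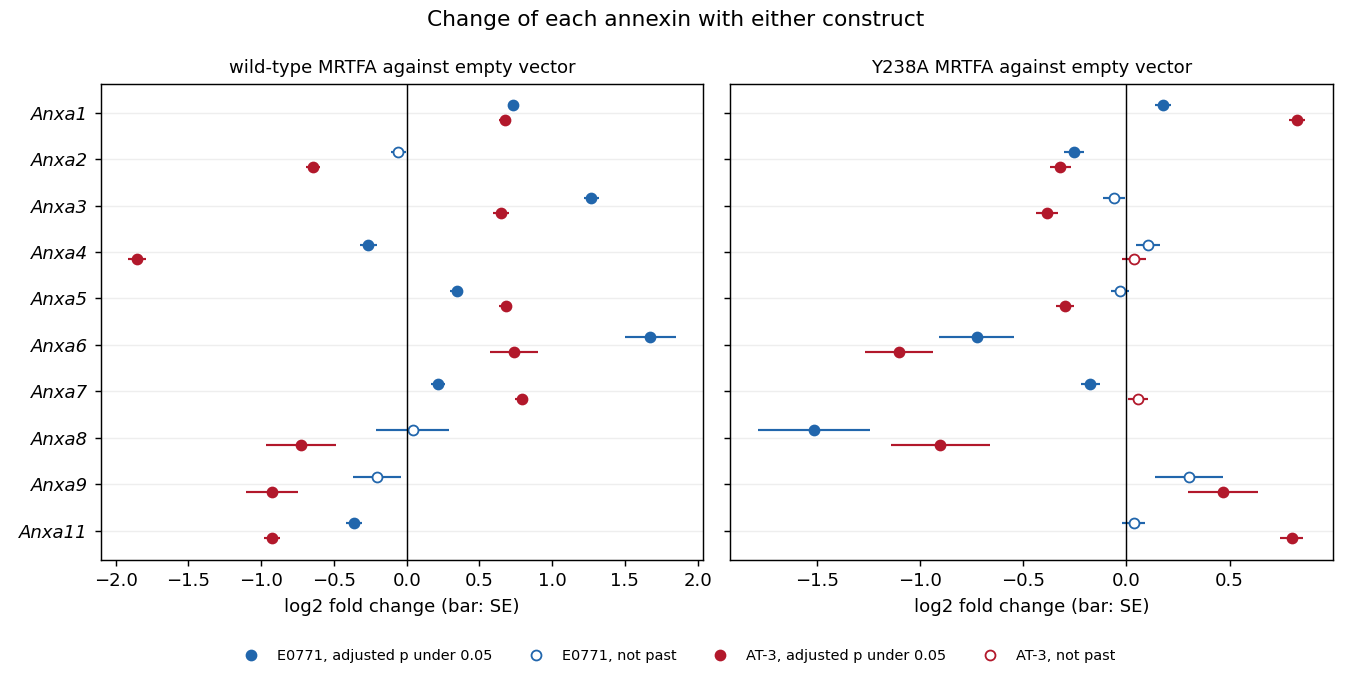
Log2 fold change against empty vector (point, with SE as bar) for each annexin with wild-type MRTFA (left panel) and with Y238A MRTFA (right panel), E0771 above AT-3 in each row and filled where the adjusted p was under 0.05. With wild-type MRTFA, Anxa4 stands at -0.26 ± 0.06 in E0771 and -1.85 ± 0.06 in AT-3, and with Y238A, Anxa11 stands at 0.04 ± 0.06 and 0.80 ± 0.06.

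Anxa1 (ENSMUSG00000024659, chromosome 19, 20373428 to 20390944, minus strand, GRCm38, 15 exonic blocks with 2911 exonic bases) encodes a secreted and membrane-bound protein that is induced by glucocorticoids and acts on formyl peptide receptors. In AT-3 it was counted at 521, 543 and 519 CPM with wild-type MRTFA, 598, 583 and 581 CPM with Y238A and 319, 332 and 342 CPM with empty vector. Both constructs stood above empty vector with no overlap, and Y238A was the higher of them. Anxa1 rose by 0.67 ± 0.04 (adjusted p = 4.13e-12) with wild type and by 0.83 ± 0.04 (adjusted p = 9.67e-13) with Y238A. In E0771 it was counted at 363, 383 and 375 CPM with wild type, 257, 253 and 254 CPM with Y238A and 222, 232 and 220.2 CPM with empty vector. Here wild type was highest, and the 3 groups again did not overlap. The gene rose by 0.73 ± 0.04 (adjusted p = 1.07e-11) with wild type and by 0.18 ± 0.04 (adjusted p = 0.00425) with Y238A. It was the one member that rose with both constructs in both lines. The receptor genes Fpr1, Fpr2 and Fpr3 averaged under 0.1 CPM in all groups.

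Anxa2 (ENSMUSG00000032231, chromosome 9, 69453620 to 69491795, plus strand, GRCm38, 15 exonic blocks with 3731 exonic bases) encodes the partner of S100a10, with which it forms a complex at the plasma membrane that binds plasminogen and its activator. In AT-3 its levels were 692, 811 and 796 CPM with wild type, 991, 945 and 945 CPM with Y238A and 1195, 1201 and 1199 CPM with empty vector. The empty vector libraries were the highest of all 18, and no groups of the line overlapped. Anxa2 fell by 0.65 ± 0.05 (adjusted p = 4.06e-10) with wild type and by 0.32 ± 0.05 (adjusted p = 2.13e-05) with Y238A. In E0771 its levels were 839.6, 877 and 849.5 CPM with wild type, 757, 715 and 765 CPM with Y238A and 887, 908 and 872 CPM with empty vector. Wild type and empty vector overlapped, with a difference of -0.06 ± 0.05 (adjusted p = 0.463), while Anxa2 fell by 0.25 ± 0.05 (adjusted p = 0.00193) with Y238A.

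Anxa4 (ENSMUSG00000029994, chromosome 6, 86736840 to 86793584, minus strand, GRCm38, 15 exonic blocks with 4645 exonic bases) encodes an annexin known from epithelial cells, which self-assembles on membranes and takes part in their repair. In AT-3 it was counted at 21.8, 24.7 and 23.0 CPM with wild-type MRTFA, 83.6, 85.3 and 88.7 CPM with Y238A and 81.0, 87.6 and 82.5 CPM with empty vector. The wild-type libraries lay apart from the others, and those of Y238A and empty vector overlapped. Anxa4 fell by 1.85 ± 0.06 (adjusted p = 8.95e-16) with wild type, 3.61-fold, the farthest change of any member against empty vector in that line. The difference with Y238A was 0.04 ± 0.06 (adjusted p = 0.673). In E0771 it was counted at 80.8, 89.1 and 88.9 CPM with wild type, 115, 101 and 118 CPM with Y238A and 102, 105 and 103 CPM with empty vector. It fell by 0.26 ± 0.06 (adjusted p = 0.00244) with wild type there, with no overlap. The difference with Y238A was 0.11 ± 0.06 (adjusted p = 0.274), and without Y238A replicate 2 it was 0.17 and passed (adjusted p = 0.0482).

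Anxa5 (ENSMUSG00000027712, chromosome 3, 36448923 to 36475894, minus strand, GRCm38, 13 exonic blocks with 1777 exonic bases) encodes the annexin that forms lattices on exposed phosphatidylserine and is used as a probe for dying cells. In AT-3 its levels were 944, 991 and 963 CPM with wild type, 491, 492 and 486 CPM with Y238A and 591, 604 and 609.7 CPM with empty vector. Wild type lay above and Y238A below empty vector, with no overlap. Anxa5 rose by 0.68 ± 0.04 (adjusted p = 2.92e-11) with wild type and fell by 0.30 ± 0.04 (adjusted p = 1.35e-05) with Y238A. In E0771 its levels were 419, 426 and 407 CPM with wild type, 333, 300.2 and 334 CPM with Y238A and 314, 344 and 329.9 CPM with empty vector. It rose by 0.34 ± 0.04 (adjusted p = 6.25e-06) with wild type. The Y238A and empty vector libraries overlapped, with a difference of -0.03 ± 0.04 (adjusted p = 0.744). This is the member whose window holds the CArG box shown above.

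Anxa6 (ENSMUSG00000018340, chromosome 11, 54979108 to 55033445, minus strand, GRCm38, 26 exonic blocks with 2930 exonic bases) encodes a large annexin with an extra core, which recruits the Ras GTPase activator p120 RasGAP (Rasa1) to membranes. In AT-3 it was counted at 779, 823 and 798 CPM with wild type, 219.7, 228 and 222 CPM with Y238A and 458, 478 and 499 CPM with empty vector. Wild type lay above and Y238A below empty vector, with wide gaps. Anxa6 rose by 0.74 ± 0.17 (adjusted p = 0.00128) with wild type and fell by 1.10 ± 0.17 (adjusted p = 0.000105) with Y238A. In E0771 it was counted at 47.9, 52.3 and 44.7 CPM with wild type, 11.1, 6.66 and 9.73 CPM with Y238A and 12.9, 20.02 and 12.6 CPM with empty vector. The order was as in AT-3, at far lower levels. It rose by 1.67 ± 0.18 (adjusted p = 9.87e-06) with wild type, 3.19-fold, the largest rise of a member against empty vector. It fell by 0.73 ± 0.18 (adjusted p = 0.0205) with Y238A. Empty vector replicate 2, the E0771 library with most AT-3 transcript, was also its highest empty vector library for Anxa6. Without it the change with wild type was 1.92 and that with Y238A was -0.48, which missed the threshold (adjusted p = 0.0512). The Y238A call was also lost without Y238A replicate 2 (adjusted p = 0.0615) and with E0771 fitted alone (adjusted p = 0.0552).

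Anxa7 (ENSMUSG00000021814, chromosome 14, 20455260 to 20480133, minus strand, GRCm38, 13 exonic blocks with 5991 exonic bases) encodes synexin, a fusion-promoting annexin that binds sorcin (Sri) and the calcium sensor Pdcd6. In AT-3 its levels were 228, 232 and 227 CPM with wild type, 138, 140.1 and 135 CPM with Y238A and 132, 134 and 132 CPM with empty vector. Wild type stood far above the others. Anxa7 rose by 0.79 ± 0.05 (adjusted p = 7.34e-12) with wild type. The Y238A libraries lay just above those with empty vector, without overlap, and the difference of 0.06 ± 0.05 (adjusted p = 0.367) missed the threshold. In E0771 its levels were 153, 158 and 149 CPM with wild type, 121, 108 and 122 CPM with Y238A and 128, 139 and 129 CPM with empty vector. It rose by 0.22 ± 0.05 (adjusted p = 0.0017) with wild type and fell by 0.17 ± 0.05 (adjusted p = 0.0192) with Y238A. The Y238A call was lost without empty vector replicate 2 (adjusted p = 0.117), without Y238A replicate 2 (adjusted p = 0.0752), without the 4 libraries of most carry-over (adjusted p = 0.144) and with E0771 fitted alone (adjusted p = 0.0515).

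Anxa11 (ENSMUSG00000021866, chromosome 14, 25842156 to 25886804, plus strand, GRCm38, 13 exonic blocks with 4135 exonic bases) encodes an annexin with a long disordered N-terminal stretch that binds Pdcd6 and S100a6 and links RNA granules to lysosomes. In AT-3 it was counted at 41.7, 46.9 and 45.3 CPM with wild type, 142, 151 and 151 CPM with Y238A and 84.9, 84.6 and 84.7 CPM with empty vector. The constructs lay on opposite sides of empty vector, and no groups overlapped. Anxa11 fell by 0.93 ± 0.06 (adjusted p = 8.88e-12) with wild type and rose by 0.80 ± 0.06 (adjusted p = 3.37e-10) with Y238A. In E0771 it was counted at 48.3, 48.5 and 47.7 CPM with wild type, 65.7, 57.2 and 67.7 CPM with Y238A and 61.0, 62.9 and 62.0 CPM with empty vector. It fell by 0.36 ± 0.06 (adjusted p = 5.01e-05) with wild type. The Y238A and empty vector libraries overlapped there, with a difference of 0.04 ± 0.06 (adjusted p = 0.757).

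Anxa3 (ENSMUSG00000029484, chromosome 5, 96793339 to 96845966, plus strand, GRCm38, 15 exonic blocks with 3643 exonic bases) encodes lipocortin III, an annexin known to inhibit phospholipase A2 in the test tube. In AT-3 its levels were 475, 519.9 and 525 CPM with wild type, 258, 247 and 237.9 CPM with Y238A and 328, 325 and 317 CPM with empty vector. Wild type lay above and Y238A below empty vector, with no overlap. Anxa3 rose by 0.65 ± 0.05 (adjusted p = 8.95e-10) with wild type and fell by 0.39 ± 0.05 (adjusted p = 4.25e-06) with Y238A. In E0771 its levels were 267, 256 and 248 CPM with wild type, 101, 99.96 and 106 CPM with Y238A and 99.4, 115 and 105 CPM with empty vector. It rose by 1.27 ± 0.05 (adjusted p = 4.16e-13) with wild type, 2.41-fold. The Y238A libraries overlapped with empty vector, with a difference of -0.06 ± 0.05 (adjusted p = 0.539).

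Anxa8 (ENSMUSG00000021950, chromosome 14, 34085981 to 34100571, plus strand, GRCm38, 12 exonic blocks with 1880 exonic bases) encodes an annexin of late endosomes and was scarce in all groups. In AT-3 it was counted at 3.25, 4.24 and 3.81 CPM with wild type, 3.85, 3.18 and 2.98 CPM with Y238A and 6.06, 7.03 and 5.595 CPM with empty vector. Both constructs lay below empty vector and overlapped with each other. Anxa8 fell by 0.73 ± 0.24 (adjusted p = 0.0109) with wild type and by 0.90 ± 0.24 (adjusted p = 0.0043) with Y238A. The first of these calls was lost without wild-type replicate 1 (adjusted p = 0.0513) or empty vector replicate 2 (adjusted p = 0.0535). In E0771 it was counted at 1.85, 2.79 and 1.48 CPM with wild type, 0.835, 0.868 and 0.366 CPM with Y238A and 2.31, 1.64 and 2.00 CPM with empty vector. All Y238A libraries lay below the others, and the lowest of them rests on 32 counts. Anxa8 fell by 1.51 ± 0.27 (adjusted p = 0.000903) with Y238A, and its difference with wild type was 0.04 ± 0.25 (adjusted p = 0.954), whose sign turned when wild-type replicate 2 (-0.26), empty vector replicate 2 (-0.08) or all 4 libraries of most carry-over (-0.37) were left out.

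Anxa9 (ENSMUSG00000015702, chromosome 3, 95296096 to 95307176, minus strand, GRCm38, 14 exonic blocks with 2073 exonic bases) encodes an annexin that lacks the usual calcium-binding residues of the core, a property known from the human protein. Its exons overlap those of Mindy1 on the opposite strand over 71 bases (3.42% of the exonic length). They also overlap those of 6330562C20Rik, which held at most 75 counts, on the same strand over 94 bases (4.53%). The strandedness of the counting is not given in the sources used here, and stranded counting would not separate the same-strand gene. The counts of Anxa9 are therefore uncertain. In AT-3 its levels were 0.979, 1.11 and 0.991 CPM with wild type, 2.17, 2.98 and 2.92 CPM with Y238A and 2.06, 1.81 and 1.97 CPM with empty vector. Wild type lay below and Y238A above empty vector. Anxa9 fell by 0.92 ± 0.18 (adjusted p = 0.000122) with wild type and rose by 0.47 ± 0.17 (adjusted p = 0.0311) with Y238A. The Y238A call was lost with no filter on low counts (adjusted p = 0.0543) and without empty vector replicate 2 or 3 (adjusted p = 0.099 and 0.0618) or Y238A replicate 2 or 3 (adjusted p = 0.125 and 0.103). In E0771 its levels were 2.90, 2.65 and 2.77 CPM with wild type, 3.99, 4.30 and 3.54 CPM with Y238A and 3.71, 3.16 and 2.71 CPM with empty vector. Neither construct differed from empty vector past the threshold, with -0.20 ± 0.17 (adjusted p = 0.414) for wild type and 0.30 ± 0.16 (adjusted p = 0.258) for Y238A.

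Wild type and Y238A, which are described as differing in the ability to bind SRF, were then set against each other. Their amounts differed too, with 5434 ± 1445 against 2105 ± 195 CPM of construct in AT-3 and 761 ± 91.1 against 319.7 ± 37.4 CPM in E0771. Binding and amount cannot be told apart in these values. In AT-3, Anxa3, Anxa5, Anxa6 and Anxa7 were higher with wild type and Anxa1, Anxa2, Anxa4, Anxa9 and Anxa11 lower, 9 of 10 where 66.2% of all genes passed (34.8% higher and 31.4% lower). In E0771 all 10 passed, 7 higher and 3 lower, against a background of 25.7% (12.7% higher and 13% lower). The construct groups did not overlap for 9 of 10 members in AT-3, against 72.9% of all genes, and for 10 of 10 in E0771, against 36.2%. The members' median absolute log2 fold change was 0.453 in E0771, against 0.231 over all genes. In AT-3 it was 1.01, against 0.663 over all genes. Against empty vector this measure was 0.303 for the members and 0.215 for all genes with wild type in E0771, and 0.734 and 0.698 in AT-3. With Y238A it was 0.177 and 0.169 in E0771, and 0.426 and 0.358 in AT-3. The membrane repair annexin Anxa6 was higher with wild type by 2.40 ± 0.18 (adjusted p = 2.97e-07) in E0771 and by 1.84 ± 0.17 (adjusted p = 3.78e-07) in AT-3. Anxa3 was higher by 1.33 ± 0.05 (adjusted p = 1.67e-13) in E0771 and by 1.03 ± 0.05 (adjusted p = 5.81e-13) in AT-3. Anxa5 was higher by 0.37 ± 0.04 (adjusted p = 1.61e-06) and 0.98 ± 0.04 (adjusted p = 9.12e-14), again E0771 before AT-3, and Anxa7 by 0.39 ± 0.05 (adjusted p = 1.78e-06) and 0.73 ± 0.05 (adjusted p = 2.19e-11). Anxa4 stood at -0.37 ± 0.06 (adjusted p = 6.99e-05) in E0771 and -1.89 ± 0.06 (adjusted p = 5.46e-16) in AT-3. Anxa11, the other member that fell with wild type in both lines, stood at -0.40 ± 0.06 (adjusted p = 1.23e-05) and -1.73 ± 0.06 (adjusted p = 5.14e-16).

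Anxa1 and Anxa2 were the 2 members for which the constructs differed in opposite directions in the lines, which 2.62% of all genes did. Anxa1 was higher with wild type in E0771, by 0.55 ± 0.04 (adjusted p = 6.52e-10), and lower in AT-3, at -0.15 ± 0.04 (adjusted p = 0.00151). The AT-3 value was -0.33 with library totals, -0.27 when wild-type replicate 2 was left out and -0.24 when replicate 3 was. Anxa2 was higher with wild type in E0771, by 0.20 ± 0.05 (adjusted p = 0.00494), and lower in AT-3, at -0.33 ± 0.05 (adjusted p = 7.83e-06). Its E0771 call was lost without the 4 libraries of most carry-over (adjusted p = 0.05 as rounded), and its AT-3 value was -0.50 with library totals. Anxa8 was higher with wild type in E0771, by 1.55 ± 0.27 (adjusted p = 0.000183), and its difference in AT-3 was 0.17 ± 0.24 (adjusted p = 0.546). Anxa9 was lower with wild type, at -0.51 ± 0.17 (adjusted p = 0.0276) in E0771 and -1.39 ± 0.18 (adjusted p = 7.07e-07) in AT-3. The E0771 call of Anxa9 was lost with no filter (adjusted p = 0.0511), without the 4 libraries of most carry-over (adjusted p = 0.154), without wild-type replicate 1, 2 or 3 (adjusted p = 0.0539, 0.0893 and 0.0726) and without Y238A replicate 1 or 2 (adjusted p = 0.0713 and 0.0898).

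**Figure D4:**
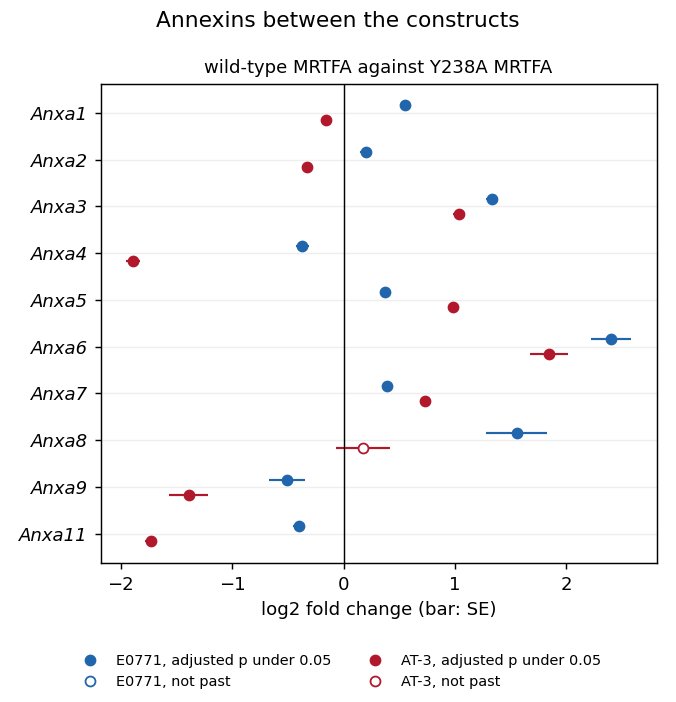
Log2 fold change of wild-type MRTFA against Y238A MRTFA (point, with SE as bar) for each annexin, E0771 above AT-3 in each row and filled where the adjusted p was under 0.05. Anxa1 and Anxa2 lie right of 0 in E0771 and left of it in AT-3, while Anxa6 lies at 2.40 ± 0.18 in E0771 and 1.84 ± 0.17 in AT-3.

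Effects in the lines were then set against each other, which also compares amounts of construct, since AT-3 held 5434 ± 1445 CPM of wild-type construct and E0771 761 ± 91.1 CPM, and 2105 ± 195 and 319.7 ± 37.4 CPM of Y238A. Taken as the effect in E0771 less that in AT-3, the difference passed the test for 8 of 10 members with wild type against empty vector, where 47.3% of all genes passed. With Y238A against empty vector it passed for 5 of 10 (background 25.8%), and with wild type against Y238A for 9 of 10 (background 45.7%). The members' median absolute difference was 0.606, against 0.621 over all genes, with wild type against empty vector. It was 0.298, against 0.372, with Y238A against empty vector, and 0.658, against 0.599, with wild type against Y238A. Anxa4 differed most with wild type against empty vector, at 1.59 ± 0.09 (adjusted p = 8.32e-12), its fall being shallow in E0771 and deep in AT-3. Anxa11 differed with Y238A against empty vector by -0.77 ± 0.08 (adjusted p = 3.71e-07). It had risen with Y238A in AT-3. Anxa1 also differed with Y238A, by -0.65 ± 0.05 (adjusted p = 3.06e-08). The rise of Anxa1 with wild type differed between the lines by 0.06 ± 0.05 (adjusted p = 0.392), which passed with library totals (0.20, adjusted p = 0.00199), under the stricter filter (0.13, adjusted p = 0.0193) and without AT-3 wild-type replicate 2 (0.26, adjusted p = 3.81e-04) or 3 (0.23, adjusted p = 0.00127). For Anxa5 the rise was smaller in E0771, at -0.34 ± 0.06 (adjusted p = 0.000142). Without AT-3 wild-type replicate 2 that difference was -0.14 and missed the threshold (adjusted p = 0.0558), without replicate 3 it was -0.16, and with library totals it was -0.20.

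Levels of the lines without a construct were compared between the empty vector groups. Here 7 members were higher in AT-3 and 2 lower, 9 of 10 where 72% of all genes passed (36.8% higher and 35.2% lower). The members' median absolute log2 fold change of 0.637 lay below the 0.870 of all genes. Anxa6 stood apart, at 479 ± 20.7 CPM in AT-3 and 15.2 ± 4.20 CPM in E0771, a log2 fold change of 4.98 ± 0.20 (adjusted p = 2.27e-11) or 31.6-fold. Without E0771 empty vector replicate 2 it was 5.21. Anxa8 averaged 6.23 ± 0.730 CPM in AT-3 and 1.98 ± 0.334 CPM in E0771, higher by 1.65 ± 0.25 (adjusted p = 4.56e-06). Anxa3 averaged 323 ± 5.32 CPM in AT-3 and 107 ± 8.17 CPM in E0771, higher by 1.60 ± 0.05 (adjusted p = 4.24e-16). Anxa5 was higher in AT-3 by 0.87 ± 0.04 (adjusted p = 3.39e-13), and Anxa1, Anxa11 and Anxa2 by 0.56 ± 0.04, 0.45 ± 0.06 and 0.43 ± 0.05. Anxa4 and Anxa9 were lower in AT-3, at -0.31 ± 0.06 (adjusted p = 0.000105) and -0.72 ± 0.17 (adjusted p = 0.000764). Anxa7 averaged 133 ± 1.399 CPM in AT-3 and 132 ± 6.39 CPM in E0771, with overlapping groups (adjusted p = 0.936).

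The members were also ordered by mean CPM over all 6 groups, for which no share over all genes was computed. For Anxa1 and Anxa6 the order ran without overlap between neighbours. For Anxa5 and Anxa11 only the E0771 Y238A and empty vector groups overlapped, and for Anxa7 only the empty vector groups of the lines. The remaining members had more overlapping neighbours. Anxa6 ran from AT-3 wild type at 799.8 ± 22.1 CPM through AT-3 empty vector and AT-3 Y238A to E0771 wild type, E0771 empty vector and E0771 Y238A at 9.15 ± 2.26 CPM. All 9 AT-3 libraries thus lay above all 9 E0771 libraries for Anxa6. Anxa4 ran the other way in part: AT-3 wild type was lowest at 23.2 ± 1.45 CPM, and the other 5 groups lay between 83.7 ± 3.44 and 111 ± 9.25 CPM. For Anxa9, neighbouring groups overlapped from E0771 Y238A at 3.94 ± 0.382 CPM down to AT-3 Y238A at 2.69 ± 0.448 CPM.

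Partners of annexins and other membrane repair genes were followed as a list of 30, of which 24 were tested. In AT-3 with wild-type MRTFA 5 rose and 11 fell against empty vector (background 36.4% higher and 32.2% lower). With Y238A 12 rose and 4 fell (background 21.4% and 22.2%). In E0771 with wild type 3 rose and 8 fell (background 11.2% and 13.3%), and with Y238A 5 rose and 0 fell (background 5.41% and 6.64%). Against that count of 0 lower from edgeR, 6 partners were lower at an unadjusted p under 0.05, and DESeq2 called 2 lower. The 3 that rose with wild type in E0771 became 5 with DESeq2, 7 under a stricter filter, and 6 and 5 without AT-3 wild-type replicate 2 and 3. The 5 that rose with Y238A in E0771 became 3 without empty vector replicate 1 or 3, and 1 fell without Y238A replicate 1 or 3. S100a10, the partner of Anxa2, averaged 130.2 ± 8.93 CPM with wild type, 392 ± 16.3 CPM with Y238A and 287 ± 7.03 CPM with empty vector in AT-3. It fell by 0.32 ± 0.05 (adjusted p = 9.73e-05) with wild type in E0771 and by 1.14 ± 0.05 (adjusted p = 1.21e-13) in AT-3. Plat, the tissue plasminogen activator that binds this complex, averaged 70.8 ± 2.48 CPM with Y238A and 6.55 ± 1.26 CPM with empty vector in AT-3. It rose by 0.77 ± 0.12 (adjusted p = 0.000244) with Y238A in E0771 and by 3.43 ± 0.13 (adjusted p = 4.47e-14) in AT-3. Plgrkt, a plasminogen receptor, rose by 0.46 ± 0.07 (adjusted p = 0.000159) with Y238A in E0771 and by 1.48 ± 0.07 (adjusted p = 9.32e-13) in AT-3.

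S100 and repair genes gave further contrasts. S100a4, a calcium-binding partner of Anxa2, averaged 141 ± 8.91 CPM with wild type, 1001 ± 49.9 CPM with Y238A and 422 ± 29.6 CPM with empty vector in AT-3. It fell by 1.58 ± 0.07 (adjusted p = 1.71e-13) with wild type and rose by 1.25 ± 0.07 (adjusted p = 2.89e-11) with Y238A. The ferlin Myof, which acts in membrane fusion and repair, fell by 1.54 ± 0.05 (adjusted p = 1.08e-15) with wild type and rose by 0.62 ± 0.05 (adjusted p = 4.95e-09) with Y238A in AT-3. In E0771, Myof fell by 0.28 ± 0.05 (adjusted p = 0.000367) with wild type and rose by 0.17 ± 0.05 (adjusted p = 0.0313) with Y238A. Dysf, the ferlin dysferlin, averaged 73.4 ± 1.83 CPM with wild type, 29.4 ± 4.34 CPM with Y238A and 24.5 ± 0.577 CPM with empty vector in E0771. It rose by 1.58 ± 0.07 (adjusted p = 1.08e-12) with wild type there. Pla2g4a, the cytosolic phospholipase A2, fell by 1.36 ± 0.08 (adjusted p = 1.21e-11) with wild type and by 0.87 ± 0.08 (adjusted p = 3.43e-08) with Y238A in AT-3. Sri, the sorcin that binds Anxa7, fell by 0.77 ± 0.05 (adjusted p = 4.43e-11) with wild type in AT-3, where Anxa7 rose. Rasa1, the partner of Anxa6, fell by 0.52 ± 0.06 (adjusted p = 3.94e-07) with Y238A in AT-3, where Anxa6 fell, and by 0.27 ± 0.06 (adjusted p = 0.000433) with wild type, where Anxa6 rose.

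**Figure D5:**
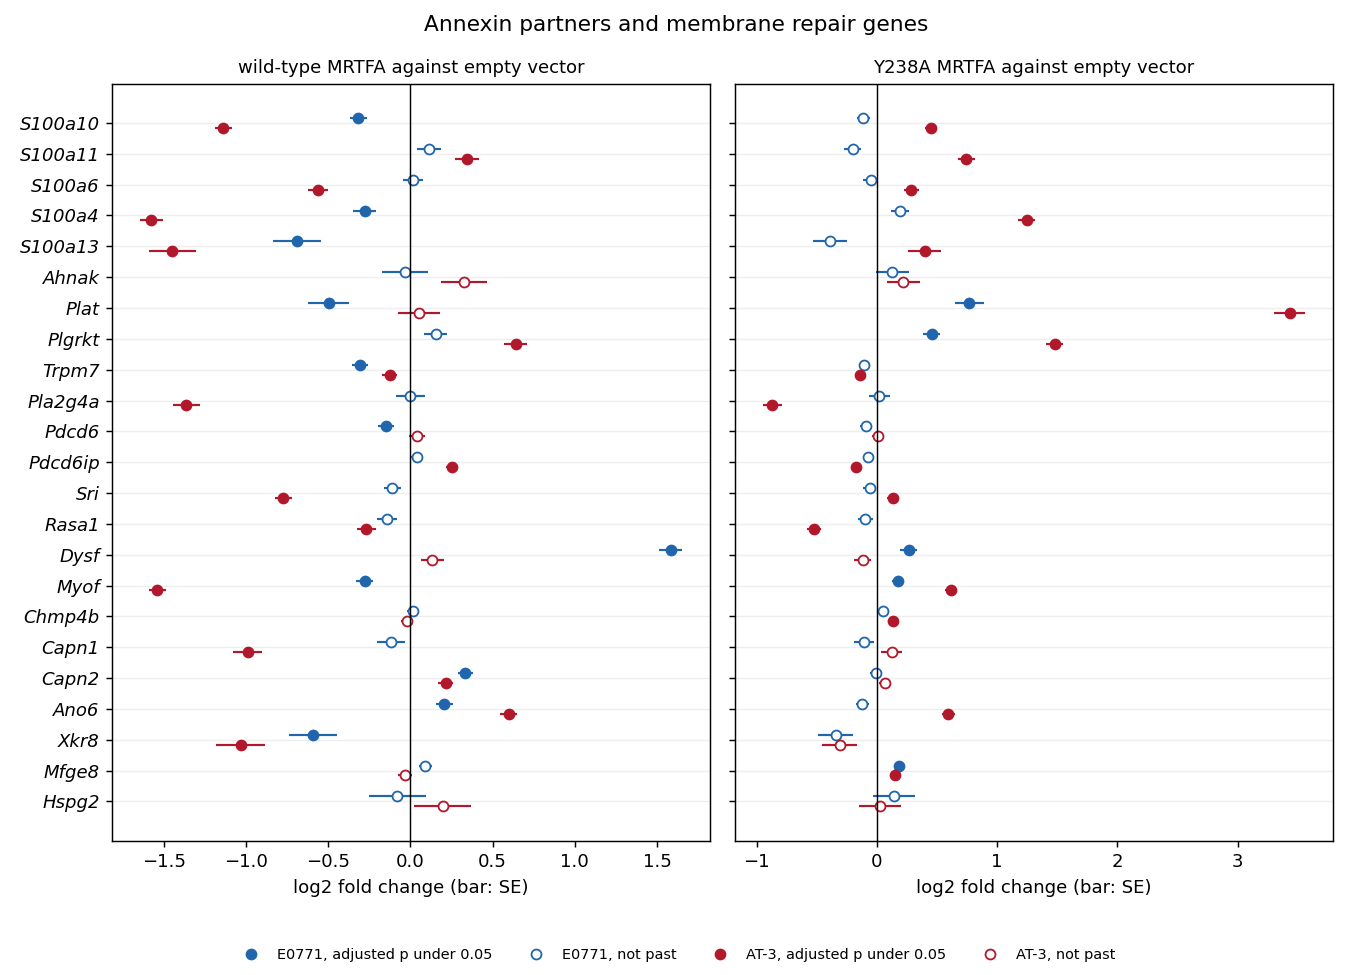
Log2 fold change against empty vector (point, with SE as bar) for 23 partner and membrane repair genes with wild-type MRTFA (left panel) and Y238A MRTFA (right panel), E0771 above AT-3 and filled where the adjusted p was under 0.05. Trim72, at a mean of no more than 0.250 CPM in any group, is left out, and Plat lies at 3.43 ± 0.13 with Y238A in AT-3.

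Over the 18 libraries, with each line centred on its own mean, several members moved alike. These Pearson correlations of log2(CPM + 1) are descriptive, since the points share 6 groups and their scaling. Anxa3 and Anxa6 had r = 0.95, Anxa5 and Anxa7 0.93, and Anxa9 and Anxa11 0.90. Anxa4 moved with Anxa11 (0.89) and against Anxa7 (-0.94) and Anxa5 (-0.92). Anxa5 moved against Anxa11 (-0.95). Anxa1 had no correlation with another member beyond 0.50 or -0.49. Among 9118 genes with a mean of at least 10 CPM, the 3 outside the family with the highest r to each member were as follows. Anxa5 was closest to Rnd3 (0.994), Serpinh1 (0.992) and Mtmr14 (0.992). Anxa3 was closest to Lamb1 (0.994), Tmsb4x (0.992) and Gpr149 (0.990), and Anxa6 to Gpr149 (0.983), Sertad4 (0.979) and Actr3 (0.975). The leading genes for Anxa4 were Ndst1 (0.995), Jade2 (0.995) and Rara (0.993), and for Anxa11 Serf2 (0.993), Nt5dc2 (0.993) and Rab3d (0.990). Those for Anxa7 were Scly (0.988), Dnajb4 (0.988) and Hdlbp (0.987), for Anxa1 Reep5 (0.972), Adam9 (0.960) and Relb (0.948) and for Anxa2 Prps1 (0.976), Hadh (0.976) and Pik3cb (0.974). The scarce members had lower values, with Ltbp3 (0.955), Dhx34 (0.950) and Vars2 (0.948) for Anxa9 and Arl2bp (0.909), Plk2 (0.898) and Frmd6 (0.886) for Anxa8. Gpr149 was in the lists of both Anxa3 and Anxa6.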

How the data were processed

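Messenger RNA of 18 libraries was sequenced. Per the labels, RNA was purified with Qiagen RNeasy and libraries made with NuGen Universal Plus mRNA. Per the submitters' processing notes, STAR and featureCounts were used with GRCm38, without versions; strandedness and annotation release are not given in the sources used here. The deposited table holds raw counts per gene, 32286 entries with 32158 symbols. Between 61.9% and 64.6% of nonzero counts were even, so both mates of a pair appear to have been counted. If so, the totals of 81265466 to 115260128 counts per library exceed the number of fragments, and the counting precision is lower than they imply.

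Genes were filtered with filterByExpr (minimum count 10, minimum total 15), scaled by TMM and tested in edgeR 4.0.16 (R 4.3.3) with the robust quasi-likelihood F test on 6 group means, which left 12 residual degrees of freedom. P-values were adjusted over 17841 genes, with a threshold of 0.05. The script was tested on simulated counts, with known changes in AT-3 wild type against empty vector. It recovered 62.7% of 67 changes of 1.5-fold, 80.6% of 67 of 2-fold and 98.5% of 66 of 4-fold. Calls in the wrong direction numbered 0, and false calls 12 among 16788 genes. The simulation gave every gene the same spread and changed few genes, unlike these data, so it checks the script and not the calls. Exonic lengths are unions of GENCODE M21 exons on GRCm38. Promoters come from RefSeq (GRCm38.p6). The table gives Ensembl IDs, and names were matched by ID. Likeness used log2(CPM + 1).

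Every listed annexin is named. From the partner list, genes named with a tested change were among the 5 smallest p-values per direction and comparison that passed. The fall of Rasa1 with wild type in AT-3 is an exception, given beside its fall with Y238A. Outside that rule, Fpr1, Fpr2, Fpr3 and Trim72 are named for their low levels, and some partners in clauses on what a member binds. The members and lists were chosen with earlier results of these data known. Alternatives were DESeq2 1.42.0, its size factors, library totals, no filter, a stricter filter (over 1 CPM in 3 libraries, with 50 counts on average), each line alone, a replicate block, a log2 limit of 1, each library left out, and all 4 libraries of highest carry-over left out (in E0771 replicate 2 of wild type, 1 of Y238A and 2 of empty vector, in AT-3 replicate 1 of Y238A). Carry-over values are given here for the E0771 libraries alone, so the AT-3 library in that set has no value behind its rank. The partner counts were recomputed under the same settings after the data were seen. Same-numbered libraries deviated together, each with a correlation over 0.1, only in E0771 between wild type and empty vector (0.524, 0.626 and 0.546).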

Additional observations from a re-analysis of the deposited data

Results flagged for a closer look

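The tested difference of an effect between the lines (E0771 effect minus AT-3 effect, interaction term in edgeR, adjusted p under 0.05) marked 22 member results, and they are given as values. With wild-type MRTFA against empty vector the difference in log2 fold change was 0.59 for Anxa2, 0.62 for Anxa3, 1.59 for Anxa4, -0.34 for Anxa5, 0.93 for Anxa6, -0.57 for Anxa7, 0.72 for Anxa9 and 0.56 for Anxa11. With Y238A against empty vector it was -0.65 for Anxa1, 0.33 for Anxa3, 0.27 for Anxa5, -0.23 for Anxa7 and -0.77 for Anxa11. With wild type against Y238A it was 0.71 for Anxa1, 0.52 for Anxa2, 0.29 for Anxa3, 1.52 for Anxa4, -0.61 for Anxa5, -0.34 for Anxa7, 1.38 for Anxa8, 0.88 for Anxa9 and 1.33 for Anxa11. The adjusted p of these differences ran up to 0.0194. Without AT-3 wild-type replicate 3 the Anxa3 difference for wild type against Y238A was 0.45, and that of Anxa7 was -0.22. Without AT-3 wild-type replicate 2 that of Anxa7 was -0.21, as it was -0.22 with library totals. The Anxa9 difference for wild type against empty vector was 0.61 without E0771 empty vector replicate 3 (adjusted p = 0.0595). The Anxa7 difference for Y238A missed the threshold without the 4 libraries of highest carry-over (-0.22, adjusted p = 0.0722).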

How the results depend on the processing

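Of the member values, 1522 kept direction and call under the alternatives, 85 lost the call, 60 of them under a limit of 1 on the size of the log2 change, 17 gained it and 16, all uncalled, turned sign. Under that limit the annexins called were 1 (AT-3, wild type against empty vector), 1 (AT-3, Y238A), 5 (AT-3, wild type against Y238A), 2, 1 and 3 in E0771 in the same order, 1, 0 and 3 for the line differences, and 3 between the lines with empty vector. With Y238A in E0771, 3 annexins were called with each line fitted alone and 3 without E0771 empty vector replicate 2. Leaving out each library in turn gave 9 to 10, 7 to 8 and 9 annexins in AT-3, 7, 3 to 5 and 9 to 10 in E0771, 7 to 10, 5 to 6 and 9 to 10 for the line differences, and 9 between the lines. Over all genes, these fits called 11620 to 12161 in AT-3 with wild type against empty vector and 6787 to 7020 with Y238A. The replicate block gave 10, 8 and 9 annexins in AT-3, 7, 5 and 10 in E0771, 8, 5 and 9 for the line differences and 9 between the lines, and changed no annexin call. Over all genes, the block called 12216 in AT-3 with wild type against empty vector and 7796 with Y238A, against 12240 and 7788 (68.6% and 43.7% of all genes) without it.

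Signs turned for Anxa8 in AT-3 between the constructs (-0.020 without wild-type replicate 2, and up to 0.29 without Y238A replicate 1). In E0771 with wild type they turned for Anxa2 (0.0083, stricter filter) and Anxa8 (-0.37 without the 4 libraries, -0.08 and -0.26 when empty vector or wild-type replicate 2 was left out, and up to 0.22 with another library out). In E0771 with Y238A they turned for Anxa5 (0.0031 with library totals, 0.011 under the stricter filter, and -0.064 to 0.018 with 1 library out), Anxa3 (0.0093 without the 4 libraries) and Anxa11 (-0.017 to 0.10 with 1 library out). Between the lines, Anxa7 was -0.073 with library totals, -0.0046 with no filter, and -0.032 to 0.029 with 1 library out. The cause was not tested. Line differences that gained a call were those of Anxa8 with wild type against empty vector (0.90 with library totals, 1.03 and 0.95 without AT-3 wild-type replicate 2 and 3, 0.95 without E0771 wild-type replicate 3), of Anxa6 with Y238A (0.45 without the 4 libraries, 0.61 without E0771 empty vector replicate 2) and of Anxa6 between the constructs (0.68 with library totals, 0.59 under the stricter filter, 0.67 without the 4 libraries, 0.72 without E0771 Y238A replicate 1, 0.70 and 0.68 without AT-3 wild-type replicate 2 and 3).

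Over all genes, library totals moved the median by -0.14 (wild type against empty vector) and -0.16 (against Y238A) in AT-3 and by 0.13 and 0.12 for the line differences with wild type. They gave 5668 higher and 6910 lower genes in AT-3 with wild type against empty vector (6497 and 5743 with TMM, 4533 and 5579 under the stricter filter), 5174 higher and 7075 lower genes in AT-3 between the constructs (6206 and 5599 with TMM), 1176 and 817 in E0771 with Y238A (965 and 1184 with TMM), 1972 and 3247 in E0771 between the constructs (2268 and 2326 with TMM), and 5266 and 3537 and 5225 and 3390 for the line differences of wild type against empty vector and against Y238A (4149 and 4285, and 4089 and 4058, with TMM). The stricter filter gave 2154 and 1385 in E0771 with wild type (2000 and 2364 otherwise) and 1285 and 889 with Y238A. Without the 4 libraries, 2762 genes were called in E0771 with wild type (4364 with all libraries) and 843 with Y238A (2149 with all libraries), and 1251 with Y238A without empty vector replicate 2. The log2 limit left 5850, 1844 and 5590 genes in AT-3 (of 12240, 7788 and 11805), 1085, 358 and 1281 in E0771 (of 4364, 2149 and 4594), 3267, 1011 and 3300 for the line differences (of 8434, 4603 and 8147) and 6910 between the lines (of 12847). Apart from that limit, the partner counts in AT-3 were 4 to 7 higher and 10 to 14 lower with wild type and 10 to 13 higher and 3 to 6 lower with Y238A, and in E0771 3 to 7 and 6 to 9, and 3 to 7 and 0 to 2. Depth limited Anxa8 and Anxa9 most, with 32 counts of Anxa8 in its lowest library.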
